A study of Mus musculus with 24 samples.

Results

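The comparison was made between P815 cells transfected with a short hairpin RNA (shRNA) against the estrogen receptor gene Esr1 and P815 cells transfected with a negative control vector, both after 24 h with beta-estradiol (E2), whose dose the labels do not give. The members are the libraries of those groups, 3 labelled SH_E2 for the hairpin and 3 labelled NC_E2 for the vector, 6 of the 24 RNA-sequencing libraries of the series. P815 is an established mouse mastocytoma line grown in RPMI-1640 with fetal bovine serum. Libraries of cells with the same vectors and no E2 (SH and NC, 3 each) served as a second measure of the hairpin difference in other libraries. Libraries labelled with the receptor antagonists ICI-182780 or tamoxifen, each with and without E2 (ICI, ICI_E2, Tamo and Tamo_E2, 3 each), gave reference ranges. The labels do not say whether the transfected cells were a pool or 1 clone, whether the antagonist groups carry a vector, or whether replicates were separate cultures, so p-values measure the spread between these libraries only. A single hairpin group and a single vector group were available, so the knockdown and any other difference between those cell stocks cannot be told apart.

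Estrogen receptor alpha, the product of Esr1, is a nuclear receptor that binds estradiol, attaches to DNA at estrogen response elements or through partner factors such as AP-1, and recruits coregulators that change transcription. A hairpin RNA is cut by Dicer into a short guide that Argonaute proteins use to destroy the matching messenger RNA. Mast cells are tissue-resident immune cells that depend on the receptor tyrosine kinase Kit, whose signal runs in part through the MAPK cascade, and that store proteases, serglycin and histamine in secretory granules.

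Levels are given as FPKM (mapped fragments scaled to transcript length and library size), in the order of replicates 1, 2 and 3. Fold changes are on the log2 scale from edgeR fits of the counts, hairpin over vector, with their standard error (SE). A gene passed when its Benjamini-Hochberg adjusted p over all genes tested was under 0.05. Estimated read totals were 44.7 M to 58.5 M reads in NC_E2 and 42.1 M to 68.8 M in SH_E2, and mitochondrial genes took 4.78% to 5.19% and 4.76% to 5.20% of them. The first principal component of the 6 libraries (36.3% of the variance) separated hairpin from vector, and the second (25.8%) separated replicate 1 of both groups from replicates 2 and 3.

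The line's mast cell identity was visible in both groups. Kit stood at 136, 127 and 101 FPKM in NC_E2 and at 119, 111 and 106 in SH_E2, and it did not pass (log2 fold change -0.17 ± 0.17 SE, adjusted p = 0.649). Gata2, a transcription factor that mast cells need, ranged from 148 to 166 and from 145 to 190 FPKM, and Hdc, the histamine-forming enzyme, from 25.9 to 29.2 and from 30.4 to 37.7. Other genes of the marker list passed, with Cpa3 and Mcpt8 higher in SH_E2 and Tpsab1, Tpsb2, Srgn and Il1rl1 lower, as described below. All 16 mast cell markers had reads, and 14 of them reached 1 FPKM in at least 1 library. The exceptions were Fcer1a, the IgE receptor alpha chain gene, at no more than 0.433 FPKM, and the tryptase gene Tpsb2, at no more than 0.949. Mcpt4 (no more than 1.06) and Ms4a2, the IgE receptor beta chain gene (no more than 1.20), were barely above that level.

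The targeted gene was measured first. Esr1 read 0.389, 0.319 and 0.234 FPKM in NC_E2 (346, 220 and 213 estimated counts) and 0.254, 0.181 and 0.210 FPKM in SH_E2 (163, 165 and 222 estimated counts). The groups overlapped by FPKM, since the lowest vector library lay under the highest hairpin library. The difference of mean log2(FPKM + 0.1) was -0.38, with a two-sided exact permutation p of 0.2, where 3 libraries against 3 cannot give less than 0.1. An edgeR fit of every gene with a count gave a log2 fold change of -0.60 ± 0.36 SE (unadjusted p = 0.106, adjusted p = 0.563). On library-scaled counts with TMM factors the log2 difference was -0.57, with an exact permutation p of 0.1, the smallest the design allows. The mean Esr1 level was lower in SH_E2 in each of these, and none of these p-values was under 0.05. Without E2 the Esr1 values were 0.404, 0.435 and 0.187 FPKM in NC and 0.347, 0.227 and 0.260 in SH. The hairpin's target site is not given in the sources used here, and expression values do not show the protein.

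Other estrogen receptors were close to nothing in the 6 libraries. Esr2, which encodes estrogen receptor beta, had no more than 8 estimated counts in any of them, and Gper1, a membrane G protein-coupled receptor for estrogen, likewise no more than 8. Of 20 tested estrogen receptor and coregulator genes, 0 passed in either direction, with a median log2 fold change of 0.02. Of these 20, 3 had an unadjusted p under 0.05 by edgeR, and DESeq2 called 1, higher. An edgeR fit with replicate number as a block called 2 higher and 2 lower, and without SH_E2 replicate 2 edgeR called 1 higher. The classical estrogen targets were partly silent: Pgr, the progesterone receptor gene, had no counts in the 6 libraries, and Greb1 read 2.42, 3.33 and 2.98 FPKM in NC_E2 against 5.44, 2.06 and 3 in SH_E2 (adjusted p = 0.78).

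Across the transcriptome, 1168 of 12183 tested genes passed (9.59%), with 646 higher (5.3%) and 522 lower (4.28%) in SH_E2, by edgeR's quasi-likelihood test. Of the 1168, 373 changed 2-fold or more (211 higher, 162 lower). In 1159 of the 1168 the FPKM values of the groups did not overlap. The same share was not counted over all genes tested, so this count is a description only. Separate groups, as described for genes below, are thus usual for a called gene and no added support. The largest rises and falls were also chosen for it. The median absolute log2 fold change of the genes that passed was 0.76, while the median over all genes tested was -0.0042. The split moved with scaling: with library totals in place of TMM factors 747 genes were higher and 432 lower. The plot of FPKM by library shows 14 of the genes described below.

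**Figure D1:**
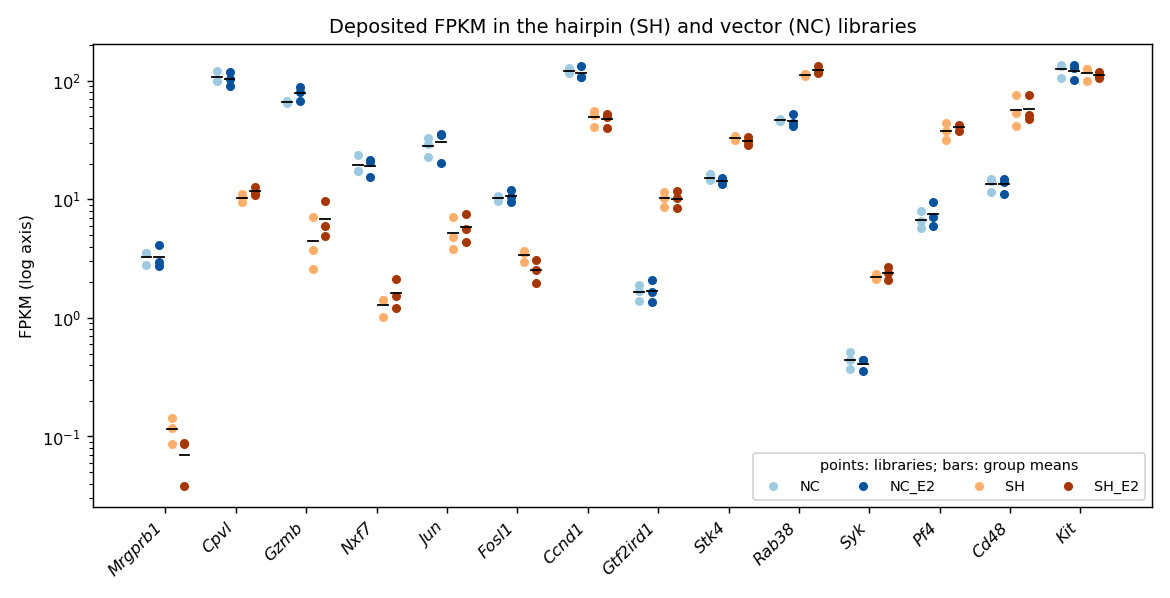
Deposited FPKM (log axis) of 14 genes in the vector (NC, NC_E2) and hairpin (SH, SH_E2) libraries, with 1 point per library and a bar at each group mean. Mrgprb1, Cpvl, Gzmb, Nxf7, Jun, Fosl1 and Ccnd1 are lower and Gtf2ird1, Stk4, Rab38, Syk, Pf4 and Cd48 higher in both hairpin groups, while Kit overlaps between all 4 groups.

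Large falls, from partial to near-complete, were among the genes with the smallest p-values. Mrgprb1, a Mas-related G protein-coupled receptor, read 4.11, 2.97 and 2.75 FPKM in NC_E2 and 0.086, 0.0379 and 0.0875 in SH_E2 (log2 fold change -5.56 ± 0.28 SE, adjusted p = 2.14e-10). Cpvl, a serine carboxypeptidase gene, went from 118, 104 and 90.7 FPKM to 11.3, 12.8 and 10.9 (-3.21 ± 0.16, adjusted p = 2.14e-10). Every hairpin library lay far under every vector library for both genes. Nxf7, of the nuclear RNA export factor family, fell from 21.7, 15.4 and 20.6 FPKM to 2.11, 1.55 and 1.21 (-3.62 ± 0.24, adjusted p = 7.68e-09). The scaffold gene Mtss1, whose product links membranes to actin, fell from 1.36, 1.12 and 1.08 FPKM to 0.241, 0.236 and 0.279 (-2.28 ± 0.14, adjusted p = 6.76e-09). Spry4, a brake on receptor tyrosine kinase signalling, was tightly grouped on both sides, at 8.32, 8.76 and 8.40 FPKM against 2.67, 2.65 and 2.61 (-1.74 ± 0.12, adjusted p = 1.09e-08).

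Among the largest falls were also genes with hardly a read left in the hairpin cells. Gzmc, a granzyme, had 63 to 154 estimated counts per library in NC_E2 (1.08, 3.42 and 1.90 FPKM) and 0 in all 3 SH_E2 libraries, which is at least 10.1-fold lower when each hairpin library is set to a floor of 12 estimated counts. Aspg, an asparaginase gene, had 583 to 931 estimated counts in NC_E2 and no more than 8 in SH_E2 (adjusted p = 5.66e-07). The proton pump subunit gene Atp6v0d2 had 199 to 281 against no more than 6 (adjusted p = 1.05e-05). Serpinb7, a serpin, fell from 1.81, 1.51 and 1.20 FPKM to values between 0.0001, which the table gives for 0 counts, and 0.14 (adjusted p = 0.00151). The potassium channel gene Kcnk6 (-3.18 ± 0.47), the interferon-induced membrane protein gene Ifitm3 (-2.89 ± 0.39), the aminopeptidase gene Enpep (-3.06 ± 0.53), Zfp532 (-3.13 ± 0.33) and Frmpd1 (-2.80 ± 0.48) were further large falls, with adjusted p from 4.09e-06 for Zfp532 to 0.000787 for Enpep.

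Several genes were low or nearly absent in the vector cells and higher in the hairpin cells. Tex21 had no more than 6 estimated counts in NC_E2 and 334 to 519 in SH_E2, that is 2.92, 3.20 and 2.43 FPKM (adjusted p = 0.000214). Efcab12 read 0.244, 0.165 and 0.195 FPKM in NC_E2 and 4.76, 4.09 and 3.98 in SH_E2 (4.32 ± 0.84, adjusted p = 0.00201). The serpin gene Serpina3g was at 0.32, 0.472 and 0.395 FPKM against 2.82, 13.9 and 15.2 (4.70 ± 0.95, adjusted p = 0.00276), with replicate 1 the lowest of the hairpin libraries. In all, 14 tested genes were under 0.5 FPKM in every NC_E2 library and at 1 FPKM or more in every SH_E2 library, and 11 showed the opposite pattern, a choice that fixes their direction. Syk, the kinase that relays IgE receptor signals, was in the first set, at 0.44, 0.439 and 0.355 FPKM against 2.67, 2.09 and 2.39 (2.48 ± 0.24, adjusted p = 2.09e-06). So was Sh2d4a, an SH2 domain adaptor gene (4 ± 0.68, adjusted p = 0.000621), and Adgrg5, an adhesion G protein-coupled receptor gene (3.70 ± 0.63, adjusted p = 0.000621).

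Rises at higher levels were as sharply grouped. Gtf2ird1, a transcription factor of the TFII-I family, read 2.07, 1.35 and 1.65 FPKM in NC_E2 and 11.8, 10.2 and 8.51 in SH_E2 (2.52 ± 0.16, adjusted p = 7.19e-09). Stk4, a kinase of the Hippo pathway, rose from 15, 14.4 and 13.4 FPKM to 28.8, 31.0 and 33.5 (1.07 ± 0.09, adjusted p = 2.22e-07). Rab38, a small GTPase that directs cargo to lysosome-related organelles, rose from 52.4, 41.6 and 44.3 FPKM to 117, 133 and 118 (1.36 ± 0.11, adjusted p = 2.22e-07). None of these had a hairpin library within the vector range. Arsb, the lysosomal arylsulfatase B, rose from 2.40, 2.29 and 2.70 FPKM to 8.09, 8.40 and 10.6 (1.83 ± 0.17, adjusted p = 1.19e-06). The decoy receptor gene Il1r2 (2.94 ± 0.35), Krt80 (2.74 ± 0.51), Bcas1 (2.73 ± 0.34) and Kir3dl1 (2.55 ± 0.53) were further large rises, and their calls held without any 1 library. Those of Eya2 (3.21 ± 0.76, adjusted p = 0.0509 without NC_E2 replicate 3), Tnfrsf1a (2.64 ± 0.67, 0.0764 and 0.0825 without NC_E2 replicate 2 or 3) and Ddc (no more than 31 estimated counts in NC_E2 and at least 259 in SH_E2, adjusted p = 0.0343, up to 0.114 and over the threshold without any 1 of the 6) did not.

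Immediate early genes are switched on within minutes of a growth signal, many through the MAPK cascade, and feedback inhibitors of that cascade are switched on with them. Of 42 tested AP-1, other immediate early and MAPK feedback genes, 18 fell and 1 rose, against 4.28% lower and 5.3% higher over all genes tested, and 35 of the 42 had a negative fold change, against 50.4% of all genes tested. The 3 lists had median log2 fold changes of -0.97 (AP-1, 11 tested), -0.92 (other immediate early genes, 15 tested) and -0.55 (MAPK feedback inhibitors, 16 tested), against -0.0042 over all genes. The lists were made with earlier results of these data known, so their direction is a description. Without SH_E2 replicate 1 or 3 in turn the AP-1 list had 3 lower genes in place of 5, and without NC_E2 replicate 1 the MAPK list had 4 in place of 7.

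AP-1 is a dimer of Jun and Fos family proteins. Jun read 20.1, 35.8 and 34.7 FPKM in NC_E2 and 4.40, 7.52 and 5.66 in SH_E2 (-2.41 ± 0.29, adjusted p = 1.55e-05). Fosl1, the Fra-1 gene, fell from 9.55, 10.4 and 11.9 FPKM to 1.98, 2.54 and 3.07 (-2.11 ± 0.19, adjusted p = 8.47e-07). Junb fell from 44.5, 46.0 and 56.2 FPKM to 25.7, 29.6 and 22.1 (-0.97 ± 0.13, adjusted p = 5.85e-05). In all 3 genes the groups were apart. The small Maf genes Maff (-1.76 ± 0.42, adjusted p = 0.0107) and Mafg (-0.48 ± 0.13, adjusted p = 0.0182) also passed, but Maff did not without SH_E2 replicate 1 (0.0631) or 3 (0.0627), and Mafg did not without any 1 of 4 libraries (SH_E2 replicates 1 and 3, NC_E2 replicates 1 and 2, up to 0.0946). Fos itself, named after its values were seen, read 4.94, 4.44 and 1.31 FPKM against 4.94, 3.59 and 1.44 (adjusted p = 0.943).

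Of the 15 other immediate early genes tested, 6 fell and 9 did not pass. Egr1, a zinc-finger factor, read 65.8, 59.6 and 36.5 FPKM in NC_E2 and 14.4, 11.4 and 3.52 in SH_E2 (-2.52 ± 0.51, adjusted p = 0.00276), and Egr3 5.04, 9.60 and 7.68 against 0.897, 2.60 and 0.892 (-2.38 ± 0.51, adjusted p = 0.00449). Klf6 fell from 43.7, 63.0 and 47.4 FPKM to 12.3, 15.3 and 11.1 (-2.04 ± 0.24, adjusted p = 1.46e-05). Klf2, a factor that restrains immune cell activation, varied more, from 3.25, 7.64 and 17.3 FPKM to 0.214, 0.79 and 0.197 (-4.57 ± 0.99, adjusted p = 0.0047). The groups were separate in each case, with replicates spread by several fold in Klf2. Ier2 (-0.92 ± 0.14, adjusted p = 0.00016) and the abundant Ier3 passed too, the latter at 253, 326 and 285 FPKM against 64.9, 161 and 74.1 (-1.57 ± 0.36, adjusted p = 0.00789, or 0.0515 without SH_E2 replicate 1).

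Of the 16 genes of the MAPK feedback list, which also holds the ERK target Etv4, 7 fell. Dusp5 and Dusp1, phosphatases of MAP kinases, fell from 13.2, 17.9 and 22.9 FPKM to 3.99, 7.38 and 4.93 (-1.77 ± 0.36, adjusted p = 0.00268) and from 7.40, 13.9 and 10.6 to 1.74, 3.87 and 2.38 (-2.04 ± 0.43, adjusted p = 0.00412). Etv4, an ETS factor downstream of ERK, fell from 28.7, 33.2 and 35.4 FPKM to 16.4, 21.6 and 22.9 (-0.72 ± 0.15, adjusted p = 0.00274). With Spry4, these losses were seen in every replicate. Spred1 fell too (-0.53 ± 0.13, adjusted p = 0.0114), though not without NC_E2 replicate 1 (0.0655) or SH_E2 replicate 2 (0.054). The 1 member that rose was Errfi1, an inhibitor of EGF receptor signalling (0.87 ± 0.21, adjusted p = 0.0103, or 0.0619 without SH_E2 replicate 3).

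**Figure D2:**
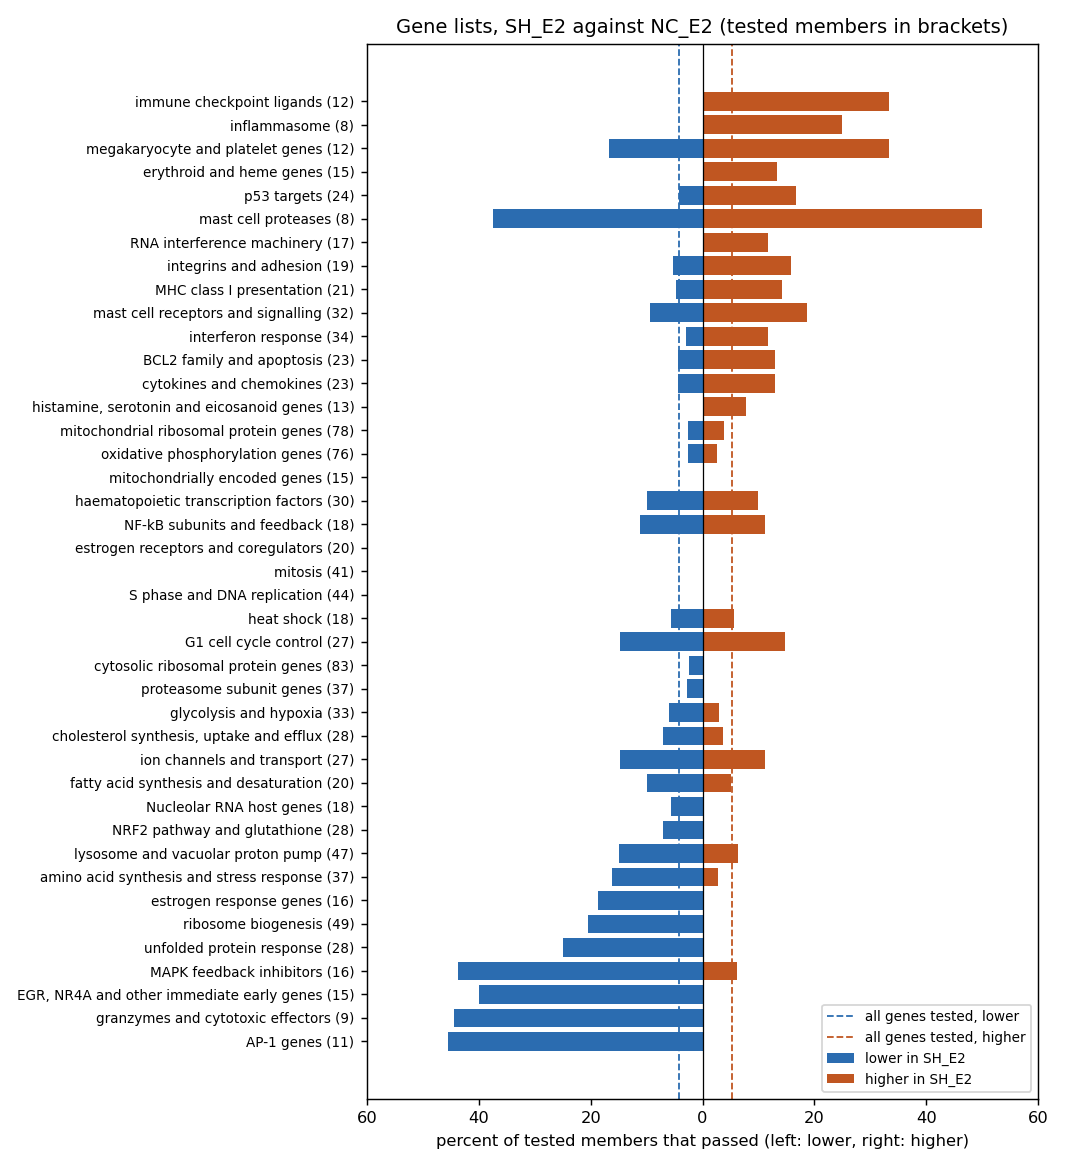
Share of tested members (percent, axis) that passed lower (left, blue) or higher (right, orange) in SH_E2 for each gene list with 8 or more tested members, with the number tested in brackets and dashed lines at the shares of all genes tested (4.28% lower, 5.3% higher). AP-1, granzyme and cytotoxic effector, MAPK feedback and other immediate early genes reach furthest to the left. Mast cell proteases reach furthest to the right, and S phase, mitosis and estrogen receptor and coregulator genes have no bar.

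Of the cell cycle genes, some of G1 passed and none of S phase or mitosis did. Among all genes tested, 4.28% were lower and 5.3% higher. Ccnd1, the cyclin D1 gene that drives G1 and is a known estrogen target in other tissues, read 107, 107 and 134 FPKM in NC_E2 and 39.8, 52.3 and 49.7 in SH_E2 (-1.35 ± 0.14, adjusted p = 4.86e-06). Ccnd2 fell less (-0.85 ± 0.22, adjusted p = 0.0191) and lost its call without SH_E2 replicate 2 (0.0974), SH_E2 replicate 3 (0.061) or NC_E2 replicate 1 (0.0862). Within the 27 tested G1 genes 4 fell and 4 rose, the latter including E2f2 (0.76 ± 0.14, adjusted p = 0.00142). Of 44 S phase and 41 mitosis genes, 0 passed in either direction, with medians of -0.02 and 0.04; by edgeR 1 and 0 had an unadjusted p under 0.05, and DESeq2 called 0 of either, although a fit with replicate number as a block called some of both, as given with the processing alternatives. Myc, the growth-promoting transcription factor, read 90.6, 77.7 and 92.9 FPKM against 77.9, 98.3 and 81.1 (adjusted p = 0.862). Ccnd1 was 1 of 3 estrogen response genes lower among 16 tested, with 0 higher; the others were the survival gene Bcl2 (-0.72 ± 0.17, adjusted p = 0.0112, or 0.0663 and 0.0576 without replicate 2 of SH_E2 or NC_E2) and Siah2 (-0.49 ± 0.14, adjusted p = 0.0245, lost without any 1 of 4 libraries, up to 0.0976).

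Genes of granule proteases and of other cytotoxic effectors changed in both directions. Of 9 tested granzyme and cytotoxic effector genes 4 fell and 0 rose, and of 8 tested mast cell proteases 4 rose and 3 fell. The shares over all genes tested were 4.28% lower and 5.3% higher. Granzyme B (Gzmb), a serine protease that triggers apoptosis in target cells, read 88.7, 67.1 and 80.4 FPKM in NC_E2 and 5.95, 9.65 and 4.87 in SH_E2 (-3.57 ± 0.29, adjusted p = 2.08e-07). The 15 libraries of NC, ICI, ICI_E2, Tamo and Tamo_E2 ranged from 63.8 to 89.8 FPKM, all above the hairpin libraries. Srgn, the serglycin core protein on which granule proteases are packed, fell from 165, 138 and 151 FPKM to 109, 94.2 and 89.7 (-0.69 ± 0.17, adjusted p = 0.0112, or 0.0516 without SH_E2 replicate 3). Lamp1, a lysosome membrane protein gene, fell slightly (-0.43 ± 0.08, adjusted p = 0.000781). Perforin (Prf1), named after its values were seen, read 24.7, 32.3 and 45.5 FPKM against 15.9, 26.8 and 23.2 (adjusted p = 0.211).

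Of the tryptases, Tpsab1 fell from 7.20, 3.98 and 3.03 FPKM to 0.785, 1.14 and 0.758 (-2.43 ± 0.47, adjusted p = 0.00198) and Tpsb2 from 0.949, 0.443 and 0.871 to 0.122 or less (adjusted p = 0.00355). Carboxypeptidase A3 (Cpa3), which trims peptides in the mast cell granule, rose from 306, 188 and 195 FPKM to 586, 499 and 529 (1.18 ± 0.28, adjusted p = 0.00848, or 0.0528 without NC_E2 replicate 2). Mcpt8, the protease better known from basophils, rose from 7.88, 10.8 and 16.2 FPKM to 31.3, 52.4 and 41.3 (1.79 ± 0.38, adjusted p = 0.00407). Each of these genes had separate groups. Without NC_E2 replicate 2 or SH_E2 replicate 1 in turn, 2 of the 8 proteases were higher in place of 4. Mcpt2 (1.26 ± 0.29, adjusted p = 0.00678, or 0.057 without SH_E2 replicate 1) also rose, while Cma1, the connective tissue chymase, named after its values were seen, did not pass (3.99, 3.39 and 3.54 FPKM against 2.92, 2.19 and 2.68, adjusted p = 0.224). Tryptase, chymase and granzyme genes have close copies, and how reads shared between copies were counted is not given in the sources used here.

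Receptors and signalling genes of mast cells were less uniform, with 6 of 32 tested higher and 3 lower. Of the 6 higher genes, 1 lies on chromosome 3, treated below. That is 18.8% and 9.38%, beside 5.3% and 4.28% of all genes tested. Beside Syk, the rises included Lat2, an adaptor of the IgE receptor (45.2, 29.7 and 30.9 FPKM against 66.7, 65.8 and 75.7, adjusted p = 0.000343), Ptger3, a prostaglandin E receptor gene (19.8, 18.1 and 20 against 36.4, 32.0 and 34.0, adjusted p = 5.11e-05), and the cytokine receptor gene Csf2rb2 (21.3, 18.4 and 15.5 against 31.7, 40.9 and 40.9, adjusted p = 0.000487). The hairpin libraries were all above the vector libraries for these genes. Beside Mrgprb1, Il1rl1, the ST2 receptor gene and likewise named after its values were seen, fell from 18.4, 12.7 and 12.8 FPKM to 4.6, 7.5 and 9.39 (-1.07 ± 0.25, adjusted p = 0.00834). Ccl2, a monocyte-attracting chemokine gene, rose from 50.9, 78.0 and 51.9 FPKM to 126, 213 and 156 (1.41 ± 0.29, adjusted p = 0.00344), and the cytokine gene Tnf fell from 34.8, 44.7 and 60.5 to 9.03, 19.9 and 19.1 (-1.59 ± 0.40, adjusted p = 0.0139, or 0.0766 and 0.0707 without SH_E2 replicate 1 or NC_E2 replicate 3). The inflammasome sensor gene Nlrp3 did not pass, at 6.89, 7.78 and 3.28 FPKM against 4.68, 2.59 and 1.29 (-1.12 ± 0.58, adjusted p = 0.275).

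Genes of other blood lineages rose in several cases. Of 12 tested megakaryocyte and platelet genes, 4 rose and 2 fell, beside 5.3% higher and 4.28% lower over all genes tested. Pf4, a chemokine of platelet granules, went from 5.94, 9.55 and 7.12 FPKM to 38.1, 42.7 and 41.2 (2.38 ± 0.24, adjusted p = 2.85e-06), and Itga2b, the platelet integrin alpha chain, from 14.3, 11.1 and 11.4 to 36.2, 27.8 and 33.4 (1.35 ± 0.14, adjusted p = 3.2e-06). The thrombin receptor gene F2r fell from 295, 283 and 260 FPKM to 102, 142 and 131 (-1.21 ± 0.15, adjusted p = 3.45e-05). The defining platelet genes Gp6 and Tubb1 had no counts in any of the 6 libraries. Lyz2, a lysozyme gene of myeloid cells, rose from 3.53, 4.44 and 3.39 FPKM to 13.6, 12.1 and 9.79 (1.59 ± 0.23, adjusted p = 0.000152), and the immunoglobulin gene Ighm from no more than 0.209 to 1.51, 3.07 and 3.61 (adjusted p = 0.00478).

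Markers of cells other than mast cells were checked beside these rises. Summed FPKM of the 24 macrophage and granulocyte markers was 24.6 to 29.6 in NC_E2 and 34.3 to 44.5 in SH_E2, and 7 of them, including Itgam, Ly6g and S100a8, had no counts in the 6 libraries. The 24 lymphoid markers summed to 1.61 to 2.10 and 5.70 to 6.64, with 8 at no counts, including Ms4a1 and Trac. For fibroblast, endothelial and epithelial markers the sums were 8.83 to 10.6 and 14.8 to 24.8, nearly all from Pdgfrb, with 10 of 21 at no counts. The part of such cells in the rises was not tested. In bulk samples, a changed number of cells and a changed RNA level per cell cannot be told apart.

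Immune surface genes rose in part, to be read beside 5.3% higher and 4.28% lower over all genes tested. Of 12 tested checkpoint ligand genes 4 rose and 0 fell: Lgals9, galectin-9 (62.6, 50.7 and 50.7 FPKM against 112, 104 and 89.1, adjusted p = 0.000128), and Tnfsf4, OX40 ligand (11.3, 11.7 and 7.75 against 26.3, 22.6 and 21.6, adjusted p = 0.00644), kept their calls without any 1 library. Pdcd1lg2 (adjusted p = 0.0239) and Entpd1 (0.0208) lost theirs without SH_E2 replicate 1, NC_E2 replicate 2 or NC_E2 replicate 3 in turn, reaching 0.126 and 0.167, and Entpd1 also without NC_E2 replicate 1. Cd48, a surface protein of blood cells that binds receptors on neighbouring cells, rose from 14.1, 11.1 and 14.9 FPKM to 47.9, 51.1 and 75.4 (2.07 ± 0.25, adjusted p = 2.35e-05). Interferon response genes were mixed, with 4 of 34 higher and 1 lower. Igtp (1.19 ± 0.18) and Oas1a (2.06 ± 0.37) rose, and Ifitm3 fell from 39.9, 46.3 and 64.5 FPKM to 4.57, 8.39 and 7.93.

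Some genes of protein folding, amino acid supply and ribosome assembly fell, while most members of these lists did not pass. Among all genes tested, 4.28% were lower and 5.3% higher. Of 28 tested unfolded protein response genes 7 fell and 0 rose (median -0.34), with 2 to 5 lower when any 1 library was left out, fewest without SH_E2 replicate 1. Edem1, which helps to clear misfolded proteins from the endoplasmic reticulum, fell from 21, 17.8 and 18.9 FPKM to 11.5, 12.7 and 14.4 (-0.63 ± 0.11, adjusted p = 0.000949), and the disulfide isomerase gene Pdia4 from 165, 154 and 146 to 111, 121 and 125 (-0.43 ± 0.10, adjusted p = 0.00532). The central chaperone gene Hspa5, named after its values were seen, did not pass (431, 383 and 295 FPKM against 348, 306 and 275, adjusted p = 0.467). Among 37 amino acid synthesis and stress genes 6 fell and 1 rose, with 3 lower without NC_E2 replicate 2. Slc7a11, the cystine transporter gene, fell from 35.0, 31.1 and 24.1 FPKM to 17.2, 11.6 and 12.2 (-1.19 ± 0.23, adjusted p = 0.00216), and Mthfd2, of mitochondrial folate metabolism, fell as well (-0.47 ± 0.08, adjusted p = 0.000908). Phgdh, the first enzyme of serine synthesis, was the exception, rising from 166, 159 and 160 FPKM to 339, 306 and 285 (0.89 ± 0.08, adjusted p = 1.19e-06). Of 49 ribosome biogenesis genes 10 fell and 0 rose (median -0.25), and 4 of the 10 lie on chromosome 19, treated below. Without any 1 library 2 to 8 were lower, again fewest without SH_E2 replicate 1.

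Cytosolic ribosomal protein, oxidative phosphorylation and mitochondrially encoded genes were called less often than all genes tested (5.3% higher, 4.28% lower). Of 83 cytosolic ribosomal protein genes 2 were lower, of 76 oxidative phosphorylation genes 2 were higher and 2 lower, and of 15 mitochondrially encoded genes 0 passed, with 0 at an unadjusted p under 0.05 and 0 by DESeq2. Of 28 cholesterol genes 1 was higher and 2 lower. Their median log2 fold change was -0.28, or -0.03 without SH_E2 replicate 1. The synthesis enzyme gene Hmgcs1 differed more between replicates than between groups (29.9, 66.1 and 59.9 FPKM against 18, 61.4 and 60.3, edgeR adjusted p = 0.863). Of 17 genes of the RNA interference machinery, which the hairpin itself enters, 2 rose: Ago4 (0.71, 1.05 and 0.663 FPKM against 3.14, 4.07 and 5.68, 2.36 ± 0.39, adjusted p = 0.000528) and Tsn (0.41 ± 0.12, adjusted p = 0.0354), the latter losing its call without each library but NC_E2 replicate 3 (up to 0.129).

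The same hairpin difference was then read in the libraries without E2, which share no library with the comparison above. They carry the same hairpin and vector and shared the fit's estimate of spread, so the overlap is not an independent repeat. There 1105 of 12183 genes passed (9.07%), 600 higher and 505 lower in SH. Of the 1168 genes that passed with E2, 864 passed there too, which is 74.0% of the first list and 78.2% of the second, and all 864 had the same direction (480 higher, 384 lower). The sign was the same for 1161 of the 1168 (99.4%), beside 80.2% of all genes tested. Gzmb read 67.1, 66.3 and 65.1 FPKM in NC and 2.57, 7.16 and 3.71 in SH, and its log2 fold change was -3.94 without E2 beside -3.57 with it. The 7 genes of opposite sign, named after their values were seen, were Tmem80, Slc44a2, Ifngr1, Sun1, Runx2os1, Snord68 and Gm11962; none passed without E2, and the adjusted p of the interaction described next was 0.99996 for each.

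**Figure D3:**
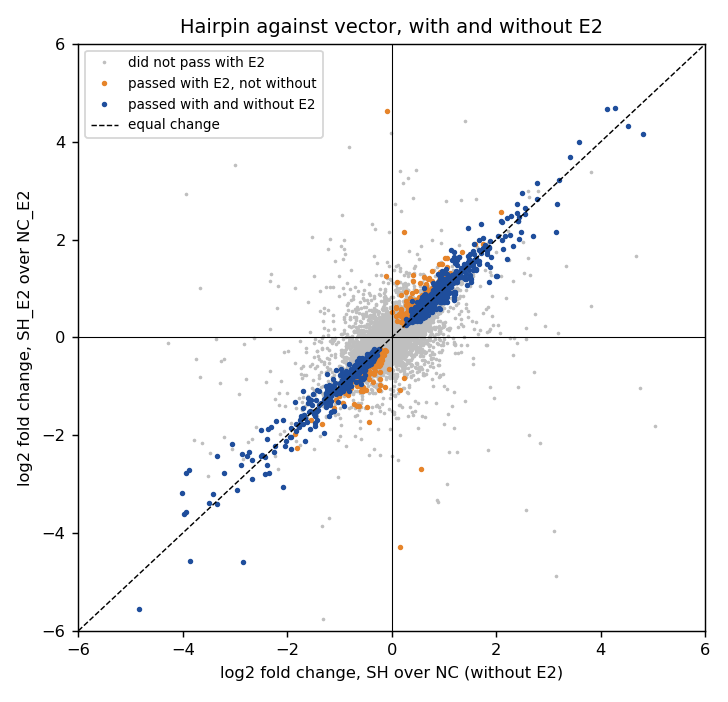
Log2 fold change of each tested gene, SH over NC without E2 (horizontal axis) against SH_E2 over NC_E2 (vertical axis); blue points passed in both, orange points with E2 only and grey points did not pass with E2. Genes that passed lie along the dashed line of equal change, and 21 genes lie outside the plotted range.

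Whether E2 altered the hairpin difference was tested directly with the interaction term. By edgeR, 0 of 12183 genes passed (0%), 139 had an unadjusted p under 0.05, and the smallest adjusted p was 0.99996. DESeq2 called 1, Zfp260, and limma called 0. The median SE of the term was 0.30, and for 66.6% of genes its 95% interval lay within a 2-fold change either way. For the remaining genes the interval reached past 2-fold, so larger effects of E2 on the difference could be missed there too. Smaller or gene-specific effects could not be seen here. The smallest p belonged to Zfp260, a zinc-finger gene, at 5.33, 4.62 and 3.82 FPKM in NC_E2 and 0.937, 4.40 and 5.06 in SH_E2, but 5.48, 5.17 and 3.82 in NC and 0.656, 0.291 and 0.667 in SH (interaction 2.77 ± 0.58, unadjusted p = 0.000128). SH_E2 replicate 1 was alone among the hairpin libraries with E2 in having the low level, and without it Zfp260 passed (3.23, adjusted p = 0.00127). Akap12, a kinase scaffold gene, was higher in hairpin cells in the presence of E2 (0.861, 0.696 and 0.696 FPKM against 2.39, 1.6 and 1.69, adjusted p = 5.09e-05) and did not pass in its absence (0.41, adjusted p = 0.149), but its interaction did not pass (0.87 ± 0.24, unadjusted p = 0.00154). Mmgt2, Ccdc71 and Nfe2 had the next smallest interaction p-values, at 0.00064, 0.000826 and 0.00231 unadjusted.

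For most genes that passed, the SH_E2 libraries also lay outside the range of the vector libraries without E2 and the antagonist libraries. In 933 of the 1168 genes (79.9%) all 3 SH_E2 libraries lay outside that range on the side of the call. The range is that of the 15 libraries of NC, ICI, ICI_E2, Tamo and Tamo_E2, with 555 genes above it and 378 below. Among all 12183 genes tested, 1461 lay outside it (12%), and these include the 933. The 1168 were called on the same SH_E2 values, so a high share is partly set by the call and is only a description. Jun ranged from 20.4 to 41.6 FPKM in those 15 libraries against 7.52 or less in SH_E2, Ccnd1 from 103 to 146 against 52.3 or less, and Cpvl from 84.2 to 134 against 12.8 or less. For these genes no library treated with ICI-182780 or tamoxifen reached the hairpin level. Srgn (89.1 to 176) and Phgdh (143 to 168 against 285 or more) show both outcomes, with the hairpin range inside the first and outside the second.

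Genes that passed were not spread evenly over the genome. On chromosome 19, 93 of 450 tested genes were lower (20.7%) and 10 higher (2.22%), the median log2 fold change was -0.35, and 80.4% of its genes had a negative value. Without E2 the chromosome's median was -0.32. Each of 9 consecutive runs of 50 genes along chromosome 19 had a negative median, from -0.11 to -0.50. On chromosome 3, 85 of 597 tested genes were higher (14.2%), with a median of 0.12, and chromosome 1 had 58 of 708 higher (8.19%, median 0.09). The remaining autosomes and X had medians between -0.03 and 0.03.

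**Figure D4:**
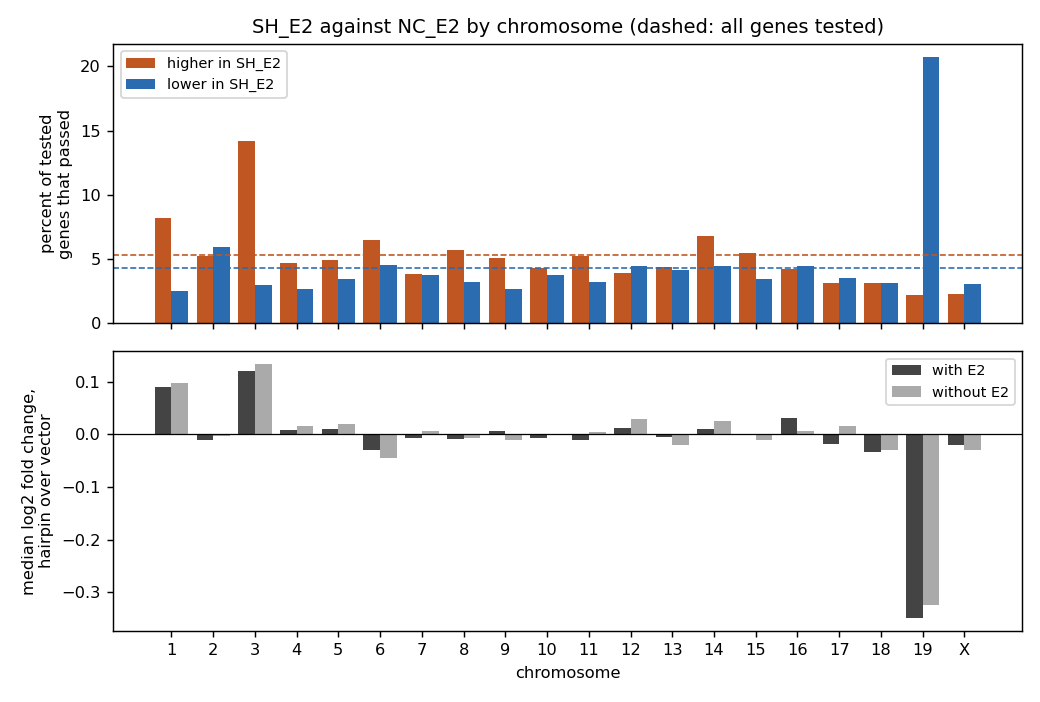
Top, percent of tested genes on each chromosome that passed higher or lower in SH_E2, with dashed lines at the shares of all genes tested; bottom, median log2 fold change of hairpin over vector with and without E2. Chromosome 19 stands out with 20.7% lower and chromosome 3 with 14.2% higher.

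The chromosome 19 shift was also read in each library. Relative to the mean of the NC libraries, the median log2(FPKM + 1) of 294 chromosome 19 genes lay between -0.258 and -0.248 in the SH_E2 libraries and between -0.273 and -0.243 in the SH libraries. In NC_E2 it lay between -0.0126 and 0.0494, and in the ICI, ICI_E2, Tamo and Tamo_E2 libraries between -0.014 and 0.034. The 6 hairpin libraries thus stood apart from the 18 others without overlap. Among chromosome 19 genes, Rtn3, an endoplasmic reticulum shaping protein gene, read 83.9, 76.1 and 79.1 FPKM in NC_E2 and 41.8, 39.7 and 40.3 in SH_E2 (-1.02 ± 0.09, adjusted p = 6.39e-07). Ganab, the glucosidase II alpha subunit gene, read 80.5, 85.1 and 79.0 against 53.2, 51.8 and 56.3 (-0.65 ± 0.07, adjusted p = 8.4e-06), and Rrp12, a ribosome assembly gene, 32.6, 34.4 and 33.1 against 21.2, 19.4 and 21 (-0.75 ± 0.09, adjusted p = 9.14e-06). These values were tight within groups and modest in size. Fosl1 and Dusp5 also lie on chromosome 19, while Fermt3 (1.08 ± 0.17, adjusted p = 0.000316), a gene of integrin activation, was higher on the same chromosome.

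Rises on chromosome 3 came in blocks. Runs of 50 genes between 90000140 and 104794459 (GRCm38) had medians of 0.32, 0.44 and 0.17, and the last run, 97 genes between 127691935 and 159529955, a median of 0.47 with 33 genes higher and 2 lower. The other runs had medians between -0.09 and 0.08. Phgdh lies on this chromosome, as do Pdlim5, a scaffold gene of the actin skeleton (5.29, 6.36 and 6.68 FPKM against 16.4, 17.6 and 23.8, adjusted p = 1.5e-06), Rnf115, a ubiquitin ligase gene (15.2, 13.1 and 12.3 against 25.1, 27.8 and 28.7, adjusted p = 7.37e-06), and Setdb1, a histone methyltransferase gene (17.5, 17.7 and 16.8 against 38.8, 29.4 and 33.0, adjusted p = 7.68e-06). With chromosomes 3 and 19 left out of the fit, a setting chosen with these results in view, 924 of 11136 genes passed (520 higher, 404 lower). In the main fit, 962 of the 1168 lay off these chromosomes. All 924 were among the 1168, but the fit used the same libraries, so the overlap is no separate support.

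**Figure D5:**
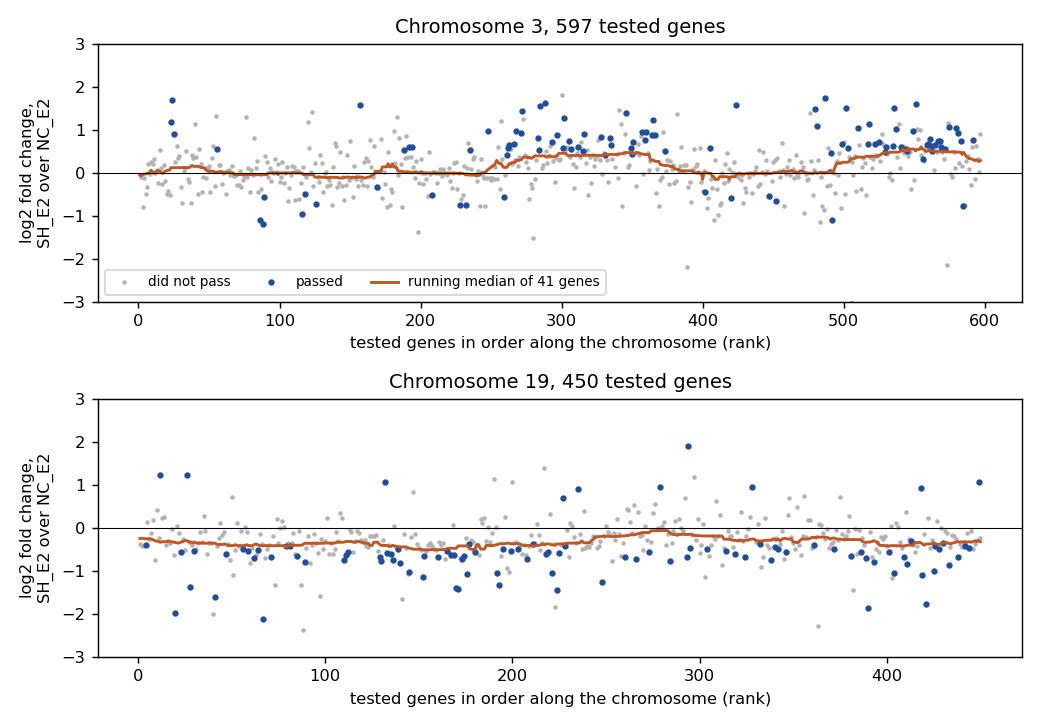
Log2 fold change of SH_E2 over NC_E2 for tested genes in their order along chromosomes 3 and 19, with genes that passed in blue and a running median of 41 genes in orange; 2 genes of each chromosome lie outside the plotted range. The running median stays under 0 along chromosome 19 and rises above 0 in 2 blocks of chromosome 3.

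Promoter windows were read next for the motifs of the receptor and of factors named above. RefSeq windows (GRCm38.p6, 250 bases before to 50 after the start) existed in the table for 8247 of the 12183 genes tested. The full palindromic estrogen response element, GGTCA and TGACC with 3 bases between them, occurred in 0 of the 8247 genes' windows, and in 23 of all 32851 windows of the table (0.07%). Its core letters GGTCA, searched on both strands as were all motifs, was in 41.9% of genes that passed higher and 44.2% of those lower, beside 42.1% of all genes tested. The AP-1 site TGANTCA was in 7.17% and 9.39%, beside 5.93%, the cyclic AMP response element TGACGTCA in 3.49% and 3.3%, beside 3.84%, the E-box CACGTG in 10.9% and 12.9%, beside 12.4%, and the serum response CArG box in 0.969% and 2.79%, beside 1.48%. These shares are descriptions, and a match is not a site shown to be used.

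Of the 18 AP-1, immediate early and MAPK feedback genes that fell, 12 had a window. The GGTCA letters were in 7 of them (58.3%), the E-box in 5 (41.7%) and the cyclic AMP response element in 2 (16.7%). The CArG box was in 1 (8.33%) and the AP-1 site in 0. Among the 33 tested genes of these lists with a window, which include the 12, the shares in that order were 39.4%, 21.2%, 9.09%, 12.1% and 3.03%. The upstream 250 bases of the 3 genes with the cyclic AMP response element or the CArG box, and of Gzmb for its AP-1 letters, follow 5′ to 3′ on the gene's strand. Gzmb is not among the 18 genes. It is 1 of 37 with AP-1 letters among the 394 lower genes that had a window, and whether the letters are used was not tested. Capitals mark the AP-1 letters in Gzmb, the cyclic AMP response element in Dusp1 and Maff and the CArG box in Dusp5. Matches to the other motifs stay in lower case.
Gzmb: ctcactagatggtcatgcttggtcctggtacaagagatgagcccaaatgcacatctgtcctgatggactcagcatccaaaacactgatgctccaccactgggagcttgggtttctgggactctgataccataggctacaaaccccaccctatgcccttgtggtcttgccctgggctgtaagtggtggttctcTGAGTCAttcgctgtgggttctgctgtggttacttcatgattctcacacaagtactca
Dusp1: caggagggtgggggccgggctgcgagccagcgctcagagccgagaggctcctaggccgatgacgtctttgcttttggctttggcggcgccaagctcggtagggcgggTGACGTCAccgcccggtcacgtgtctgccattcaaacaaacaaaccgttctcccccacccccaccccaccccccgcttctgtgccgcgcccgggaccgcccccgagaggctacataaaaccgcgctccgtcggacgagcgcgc
Maff: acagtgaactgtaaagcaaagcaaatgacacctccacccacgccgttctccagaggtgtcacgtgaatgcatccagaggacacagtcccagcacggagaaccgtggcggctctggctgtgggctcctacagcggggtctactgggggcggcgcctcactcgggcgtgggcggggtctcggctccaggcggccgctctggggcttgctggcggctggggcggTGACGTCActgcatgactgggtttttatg
Dusp5: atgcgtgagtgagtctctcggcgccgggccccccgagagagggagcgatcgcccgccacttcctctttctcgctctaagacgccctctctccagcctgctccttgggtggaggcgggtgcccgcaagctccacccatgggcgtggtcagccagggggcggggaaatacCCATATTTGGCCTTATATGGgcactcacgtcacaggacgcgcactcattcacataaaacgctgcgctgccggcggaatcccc
The Gzmb bases are chr14:56262335-56262584 on the minus strand, with TGAGTCA starting 58 bases before the transcript start. The Dusp1 bases are chr17:26508473-26508722 on the minus strand, with TGACGTCA 143 bases before the start. For Maff the window of the second of 3 listed starts is shown, chr15:79347270-79347519 on the plus strand, with TGACGTCA 29 bases before it. In Dusp5, chr19:53528895-53529144 on the plus strand, the CArG box letters begin 82 and 72 bases before the start.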

How the data were processed

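RNA extracted with TRIzol was sequenced by Illumina protocols, per the labels. The submitters' processing notes list cutadapt, HISAT2 and the build GRCm38. The authors deposited 1 table of 55385 genes with estimated counts (whole numbers that pile up at 4, 8 and 12) and FPKM, which is 0.0001 wherever the count is 0. No source used here states how counting was done or whether it used strand, so overlapping antisense genes cannot be told apart. The table held 0 columns of other samples.

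Counts of all 24 libraries were fitted with edgeR 4.0.16 (R 4.3.3, 1 coefficient for each of 8 groups, TMM factors, quasi-likelihood test, Benjamini-Hochberg adjustment at 0.05) for the 12183 genes at 1 FPKM or more in at least 3 libraries; the fit was tested on simulated data. Contrasts were SH_E2 against NC_E2, SH against NC, and their difference. Esr1, under the filter, was tested by exact permutation of log2(FPKM + 0.1). Genes named were the 15 largest rises and falls without overlap, the 5 smallest p each way, up to 6 called genes per list and 5 per chromosome discussed, the 5 smallest interaction p, and a fixed set of receptor, mast cell and target genes; others are marked where they appear, apart from cell markers. The comparison and the gene lists were chosen with earlier results of these data known. Alternatives used DESeq2 1.42.0, limma 3.58.1, other scalings and filters, a replicate block, and each library left out.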

Additional observations from a re-analysis of the deposited data

How the results depend on the processing

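Of the genes named, 177 of 186 passed, 63 of them lost the call when 1 of the 6 libraries was left out, and 82 did so in at least 1 of 18 alternatives; no direction of a called value turned. The count of 1168 genes became 554 with the 6 libraries fitted alone (557 for SH against NC), 747 with replicates 2 and 3 alone (chosen after seeing the data), 778 to 898 with any 1 library left out (781 to 910 for SH against NC), 841 with no FPKM filter, 1519 with DESeq2, and 373 with a 2-fold minimum. Some of these fits use fewer libraries; otherwise the cause was not tested. Genes lower in SH_E2 made up 44.7% of the calls, 36.6% with library totals, 34.5% with limma on log2(FPKM + 1), and 43.2% to 48.5% without any 1 library. The interaction gave 1 gene with DESeq2 (Zfp260) and with replicates 2 and 3 alone (Socs6), and 0 to 1 without any 1 library. The Esr1 difference was -0.11 on log2(FPKM + 1) and -0.25 to -0.53 without any 1 library. Deviations of same-numbered libraries correlated at 0.330, 0.0967 and 0.12, so not every pair passed 0.1 and the numbers were not taken as a pairing, although replicate 1 of both groups deviated together; NC_E2 replicate 3 was closest to SH_E2 replicate 2 (0.163). With the replicate block, 2667 genes were called (2572 for SH against NC, 0 for the interaction), S phase genes were 2 higher and 7 lower, mitosis genes 6 higher and 2 lower, and Esr1 was at -0.56 ± 0.25 SE (edgeR, unadjusted p = 0.0417, adjusted p = 0.268). Differences at counts under 12 per library could not be measured at this depth.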
